A study of Mus musculus with 12 samples.

Results

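Gene expression in gastrocnemius, the large calf muscle, was compared between resting mice with a knockout of cellular Feimin and resting wild-type mice. A gene entered the comparison when it held at least 10 counts in 3 or more of the 6 sedentary libraries. This rule kept 14165 of the 43432 genes in the count table (32.6%), and it uses counts without regard to genotype. With 3 libraries a group, a gene could still meet it through a single group. Chrng, Wfdc17, Gm6977, Asns, Pla2g4b and Hyls1 met it only through the knockout libraries, and Cpt1c only through the wild-type libraries. For these genes the rule itself fixed the separation of the groups, so that separation is no result. The wild-type group (WT) held 3 libraries, replicates 1, 3 and 4, from male fl/fl mice, whose targeted gene is flanked by recombination sites and otherwise intact. The knockout group (MKO) held 3 libraries, replicates 1, 2 and 3, from male cFeimin MKO mice. The design text calls the controls littermates, and the labels state no Cre driver, age or strain. All 6 mice were sedentary. A further 6 libraries, 3 WT and 3 MKO, came from runners exercised for 90 min, at 60% of maximal speed, and they served here to estimate the spread between libraries and as samples outside the comparison. The study asks how cellular Feimin bears on running performance and on heat production in muscle.

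Feimin is known as a protein of skeletal muscle that is released after feeding and acts through the receptor tyrosine kinase MERTK, a member of the TAM family that also includes AXL and TYRO3. The labels name the form studied here cellular Feimin (cFeimin). Resting muscle can make heat when sarcolipin binds the calcium pump of the sarcoplasmic reticulum, so that the pump splits ATP while moving less calcium. Mitochondrial uncoupling proteins and the coactivator PGC-1alpha, encoded by Ppargc1a, are also linked to heat production.

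The 6 sedentary libraries held 14357977 to 14484078 counts each, and 18731 to 19559 genes had at least 1 count. Levels are given in CPM, counts scaled to a common library size after allowing for library composition, and 3 counts correspond to about 0.2 CPM (0.181 to 0.206). Fast skeletal muscle genes were abundant in each library, with Myh4 at 19898 to 29899 CPM, and the male gene Ddx3y was at 18.6 to 25.4 CPM. MKO replicate 3 stood apart. It took 44.3 on the 1st principal component of the 6 libraries (30.8% of the variance), where the other 5 lay between -15.7 and -3.3. It also had the lowest share of mitochondrial counts, at 16.9% against 20.1% to 24.3%. Of 13058 genes that averaged at least 1 CPM, it held 212 at less than 1 part in 2 of the median of the other 5 libraries, against 56 to 102 genes for each of those. Results are therefore also given without it where its values carry weight.

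Feimin was equated with the product of B230219D22Rik (ENSMUSG00000045767), a link that comes from general knowledge and not from the labels. In the GENCODE annotation of GRCm38 the gene lies on chromosome 13, 55693124 to 55703500, plus strand. It has 2 exons of 224 and 4428 bases, and its whole coding sequence, 564 bases or 188 codons, lies in exon 2. The first 300 bases of the coding sequence (chr13:55699076-55699375, plus strand, from the GENCODE transcript) are shown because they open the reading frame of the targeted gene. Capitals mark the start codon.
B230219D22Rik coding start: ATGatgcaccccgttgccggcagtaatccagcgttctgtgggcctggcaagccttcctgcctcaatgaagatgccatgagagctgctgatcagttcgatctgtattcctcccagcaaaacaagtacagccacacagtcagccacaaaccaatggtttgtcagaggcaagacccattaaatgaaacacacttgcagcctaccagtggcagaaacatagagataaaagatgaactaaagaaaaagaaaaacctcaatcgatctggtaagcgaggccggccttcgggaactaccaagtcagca

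The WT libraries held 316, 360 and 320 counts of B230219D22Rik, and the MKO libraries 92, 75 and 60. In CPM these were 21.7, 24.2 and 21.9 in WT and 6.11, 5.0 and 3.62 in MKO. The groups did not overlap, and the MKO mean was 21.7% of the WT mean (4.91 ± 1.25 against 22.6 ± 1.41 CPM, mean ± SD). B230219D22Rik fell by 2.2 on the log2 scale (SE 0.18, 95% interval -2.59 to -1.82, edgeR adjusted p = 0.000525). All fold changes that follow are log2 values, MKO minus WT at rest unless said otherwise, with ± for the SE. Between 60 and 92 counts per MKO library still mapped to the gene. The table counts whole genes, so it does not show which exon these counts came from, and in bulk tissue fewer cells with a transcript and less transcript per cell cannot be told apart.

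The count table holds 34 genes within 500 kb of the target, of which 19 passed the count rule with B230219D22Rik among them. The flanking genes Ddx46, an RNA helicase gene upstream, and Txndc15 downstream had log2 fold changes of -0.02 ± 0.12 and 0.02 ± 0.09 (± SE). Ddx46 was at 23.3, 21.1 and 26.8 CPM in WT and 24.1, 22.1 and 23.9 in MKO. The genotypes overlapped for both, and the sign of each changed under other settings. The 18 tested neighbours spanned -0.28 for Caml to 0.79 for Tifab, and 0 of them passed. Of the neighbours 15 were positive and 3 negative, against 50.2% positive over all genes. The groups did not overlap for Prelid1, Grk6, Dbn1 and Dok3 (MKO higher) and for Nsd1 and Caml (MKO lower). Over all genes this share was 10.4%. Dok3, an adaptor gene of immune cells, was at 0.96, 1.08 and 0.96 CPM in WT and 1.53, 1.33 and 2.11 in MKO. Dbn1, which encodes the actin-binding protein drebrin, had 0.53 ± 0.19, and Nsd1, a histone methyltransferase gene, had -0.19 ± 0.08.

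**Figure D1:**
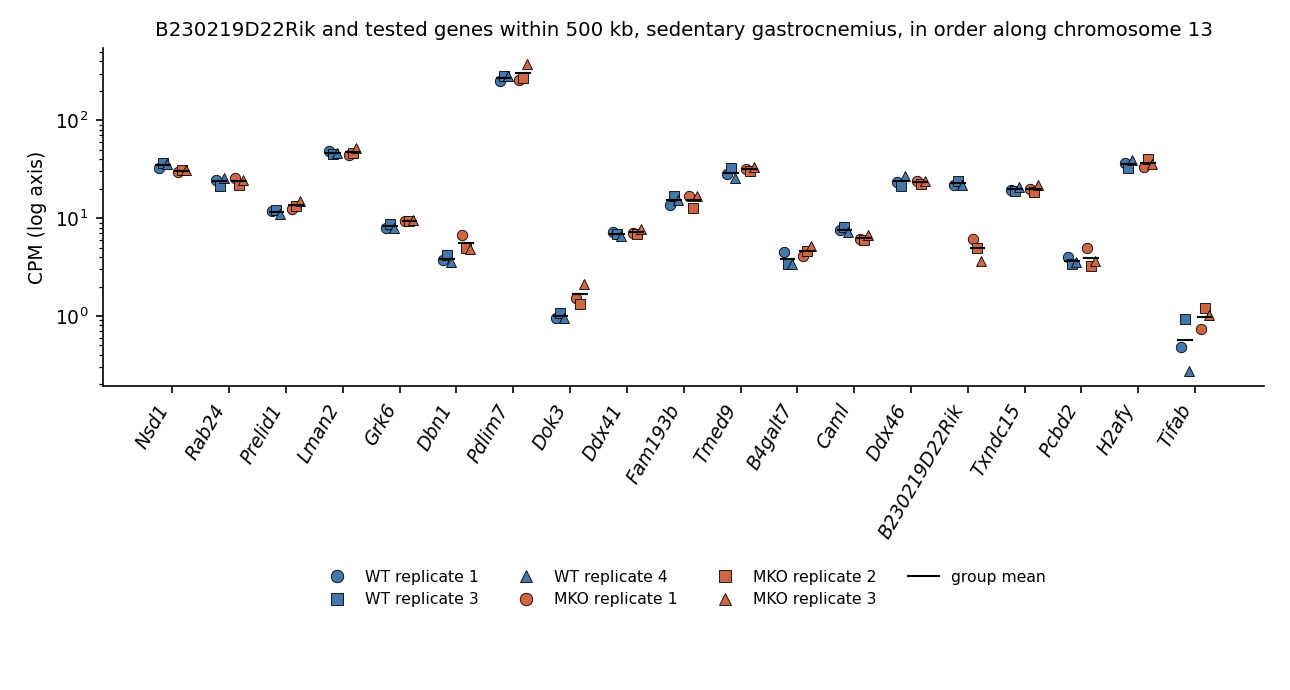
CPM (log axis) of B230219D22Rik and the 18 tested genes within 500 kb in each sedentary library, ordered along chromosome 13, with bars at group means. B230219D22Rik is the gene whose WT (21.7 to 24.2 CPM) and MKO libraries (3.62 to 6.11 CPM) lie far apart.

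Across the 14165 genes, B230219D22Rik was the 1 gene that passed the threshold of an adjusted p under 0.05 (percent called 0.00706), and 0 genes passed as higher in MKO by edgeR. At an unadjusted p under 0.05 the counts were 302 genes higher (2.13%) and 227 lower in MKO (1.6%), together 3.73% of all genes. DESeq2 and limma-voom each called 1 gene besides the target, Gm6977 (higher) and Cpt1c (lower). The MKO and WT libraries did not overlap for 1469 genes (10.4%), of which 763 were higher (5.39%) and 706 lower in MKO (4.98%). Without WT replicate 1 the count of genes that passed was 3, and without MKO replicate 1 or MKO replicate 2 it was 2. Without MKO replicate 3 it was 1.

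The median log2 fold change over all genes was 0.000746, with 50.2% of genes positive and 49.8% negative. With total counts as the library size this median moved to 0.085, and 11 of the 35 list medians described here, all between -0.08 and 0, turned positive. Point values lay within 1.5-fold for 96.1% of genes, and 153 genes lay beyond 2-fold (109 higher and 44 lower in MKO). The 95% interval stayed within 2-fold for 12561 genes (88.7%) and within 1.5-fold for 9150 (64.6%). This share depended on the level. It was 48.1% of genes under 1 CPM, 88.0% of genes at 1 to 10 CPM and 96.4% at 10 to 100 CPM, so for genes of low level a 2-fold difference could often not be told from none.

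**Figure D2:**
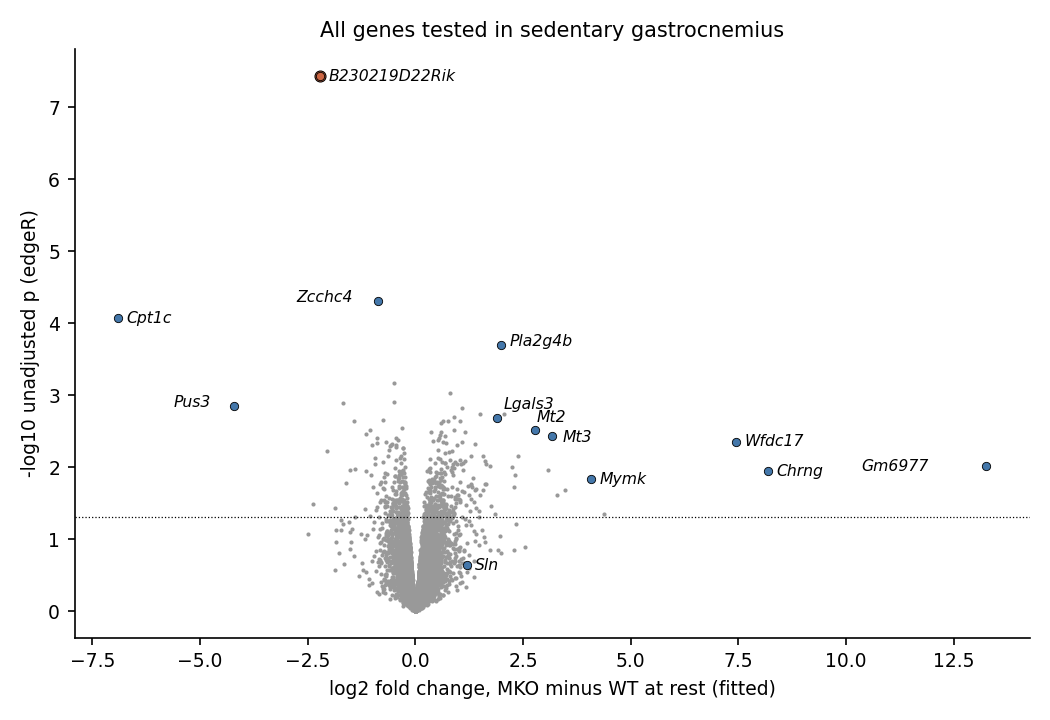
Fitted log2 fold change, MKO minus WT at rest, against the negative log10 of the unadjusted edgeR result for the 14165 genes tested, with the dotted line at the 0.05 level. B230219D22Rik (red) lies above the other genes; Chrng, Wfdc17, Gm6977 and Cpt1c had no counts in 1 of the 2 groups, so their fitted positions on the horizontal axis are not measured folds.

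Genes of muscle heat production did not pass. Sln, which encodes sarcolipin, was at 4.25, 0.81 and 1.44 CPM in WT and 5.52, 2.93 and 6.34 in MKO. The groups overlapped through WT replicate 1, and the log2 fold change was 1.19 ± 0.95 (95% interval -0.87 to 3.26). Without WT replicate 1 it was 2.13. The calcium pump gene of fast fibres, Atp2a1, had -0.12 ± 0.14. Atp2a2, the pump gene of slow fibres, was at 188, 166 and 91.8 CPM in WT and 270, 267 and 31.0 in MKO. Its fold change was 0.35 ± 0.55, and it was 0.85 without MKO replicate 3 and 0.00 without MKO replicate 1. Ucp3, a mitochondrial carrier gene of the uncoupling family, was at 435, 356 and 296 CPM in WT and 273, 234 and 362 in MKO (-0.32 ± 0.17). Ppargc1a was at 59.1, 31.9 and 40.3 CPM in WT and 40.8, 30.3 and 18.3 in MKO (-0.56 ± 0.43). The groups overlapped for both genes. Mrln, which encodes the pump inhibitor myoregulin, was at 32.7, 26.6 and 32.6 CPM in WT and 24.9, 23.5 and 23.6 in MKO (-0.35 ± 0.16). It was the 1 tested member of the list whose groups did not overlap, while over all genes 10.4% did not overlap. The list of calcium pump and heat genes had 22 tested members, 8 positive and 14 negative, with a median of -0.03, positive with total counts. Ucp1, Foxc2 and Pm20d1 were under the count minimum, with Foxc2 at 2 to 7 counts per library.

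The receptors and ligands of the TAM family also lay close together in the 2 genotypes. Mertk was at 2.61, 2.35 and 2.60 CPM in WT and 3.06, 2.0 and 2.90 in MKO. Its log2 fold change was 0.08 ± 0.27, and it turned to -0.03 without MKO replicate 1 and -0.00024 without MKO replicate 3. Axl had 0.18 ± 0.13, and the ligand genes Gas6 and Pros1 had 0.07 ± 0.10 and 0.28 ± 0.16. Tyro3 was under the count minimum. Of 8 tested members 6 were positive, with a median of 0.07, and 0 had groups that did not overlap (10.4% over all genes).

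Some genes were followed because they passed between the genotypes after running. Lgals8, which encodes the glycan-binding protein galectin-8, was at 8.09, 8.14 and 8.42 CPM in resting WT and 8.84, 16.9 and 9.90 in resting MKO. The groups did not overlap at rest, where the log2 fold change was 0.53 ± 0.25, and 0.19 without MKO replicate 2. After running, its fold change was 3.93. Egr1, an immediate-early transcription factor gene, had 0.76 ± 0.37 at rest and -2.22 after running. Sema3a, a guidance cue gene, had -0.49 ± 0.25, and Mnt, a repressor gene of the MYC network, -0.13 ± 0.11. Whether the genotype effect differed between the states was tested for each gene with an interaction term. By edgeR 0 of 14165 genes passed, and 526 had an unadjusted p under 0.05 (3.71%). The difference, after running minus at rest, was 3.40 ± 0.42 for Lgals8 (edgeR adjusted p = 0.054), close to the threshold. For Egr1 it was -2.99 ± 0.48 (edgeR adjusted p = 0.233). DESeq2 passed 3 genes (Egr1, Gm6977 and Lgals8), limma-voom passed 1 (Cpt1c), and with total counts as the library size edgeR passed Lgals8.

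Fibre type was described next, because the pumps differ between fibre types. Myh7, the slow myosin gene, was at 205, 217 and 98.4 CPM in WT and 422, 361 and 11.2 in MKO. Tnnc1, the slow and cardiac troponin C gene, was at 71.6, 81.4 and 37.3 CPM in WT and 173, 123 and 6.64 in MKO. For both genes MKO replicate 3 was far below the other 5 libraries, and the other MKO libraries were above all WT libraries. Of 15 slow-fibre genes, 13 were lowest in MKO replicate 3, with a median of 6.08-fold below the median of the other 5 libraries. Of 16 fast-fibre genes 2 were lowest there (median 0.956-fold for that list). These were the fast myosin genes Myh1 and Myh2, at 1745 and 989 CPM against medians of 3070 and 2184 CPM in the other 5 libraries. The slow-fibre list had 11 positive and 4 negative members and a median of 0.35, which was 0.73 without MKO replicate 3 and -0.05 without MKO replicate 1. Its summed level was 1971 to 2512 CPM in WT, and 3494, 3254 and 456 CPM in MKO. The fast-fibre list had 12 negative members of 16 and a median of -0.11, which was 0.05 without WT replicate 4. None of the 15 slow-fibre or 16 fast-fibre genes passed.

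**Figure D3:**
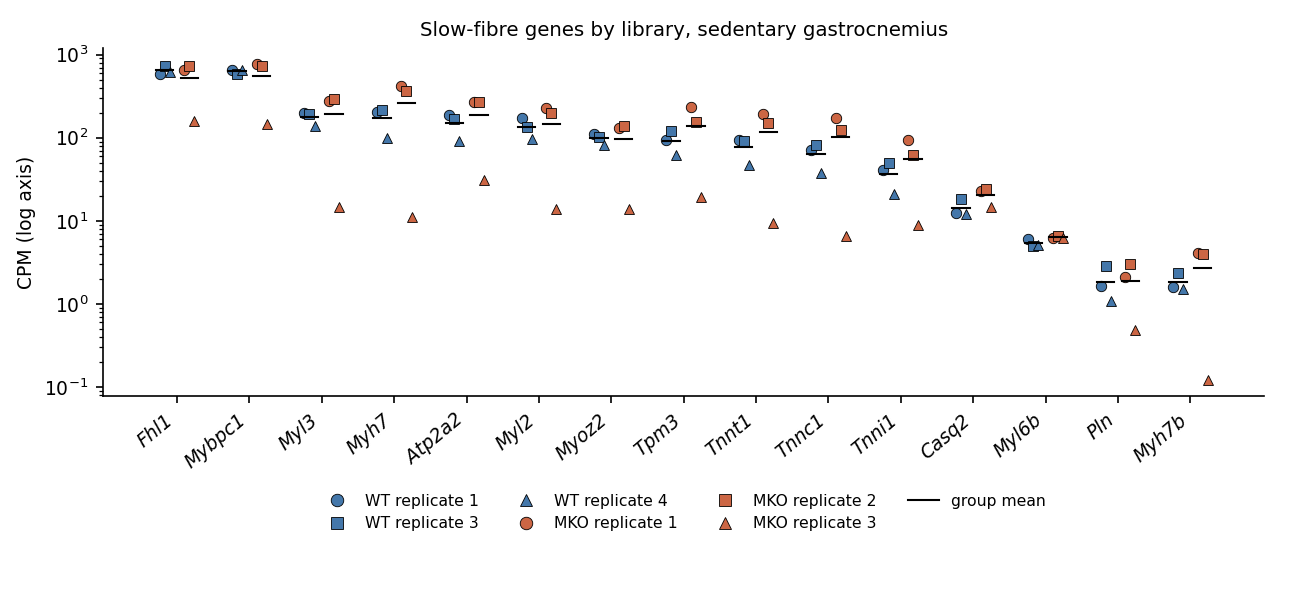
CPM (log axis) of the 15 slow-fibre genes in each sedentary library, with bars at group means. MKO replicate 3 (red triangles) is the lowest library for 13 of the 15 genes.

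Genes of energy metabolism were described by pathway. Of 30 genes of fatty acid uptake and oxidation 28 were negative, with a median of -0.15, and the median was 0.05 without MKO replicate 3 and 0.02 without WT replicate 3. Acot2, a mitochondrial thioesterase gene, was at 34.6, 63.9 and 30.8 CPM in WT and 29.0, 23.7 and 15.4 in MKO. The groups did not overlap, and the fold change was -0.93 ± 0.29 (-1.14 to -0.53 with any 1 library left out). Mlycd, whose product removes malonyl-CoA, had -0.33 ± 0.15. All 13 mitochondrially encoded genes were negative (median -0.21, and -0.08 without MKO replicate 3), led by mt-Nd2 at -0.35 ± 0.18. The 46 nuclear genes of the respiratory chain had 25 positive and 21 negative values with a median of 0.00. Of 24 genes of the citric acid cycle 20 were negative with a median of -0.03, which turned positive with total counts and was 0.11 without MKO replicate 3.

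In the insulin and glucose uptake list 21 of 25 genes were negative, with a median of -0.07 that turned positive with total counts. The mean log2 CPM of its members did not overlap, at 5.51 to 5.62 in WT and 5.28 to 5.49 in MKO. Gsk3b, the glycogen synthase kinase gene, was at 39.6, 39.5 and 42.2 CPM in WT and 31.1, 33.7 and 30.9 in MKO (-0.34 ± 0.12). The transporter gene Slc2a4 and the kinase gene Akt2 had -0.02 and -0.07. Ugp2, whose product makes the glucose donor for glycogen, was at 572, 610 and 570 CPM in WT and 540, 445 and 397 in MKO (-0.34 ± 0.12). Of 30 genes of glycolysis and glycogen 16 were positive (median 0.04).

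Genes of protein breakdown were mostly on the negative side. Fbxo32, the ubiquitin ligase gene also called atrogin-1, was at 828, 588 and 624 CPM in WT and 551, 421 and 391 in MKO. The groups did not overlap, and the fold change was -0.58 ± 0.17. Trim63, which encodes the ligase MuRF1, was at 920, 263 and 367 CPM in WT and 397, 323 and 260.5 in MKO, so its value of -0.66 ± 0.36 rested on WT replicate 1 and was 0.05 without it. The list of atrophy, autophagy and lysosome genes had 19 negative members of 25 and a median of -0.07. Its lysosomal member Ctsb, a protease gene, had 0.27 ± 0.12. Of 26 proteasome genes 18 were negative (median -0.07), and with total counts as the library size the medians of both lists turned positive. Ribosomal protein genes lay the other way, with 28 of 34 positive and a median of 0.06.

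Several genes of developing, regenerating or denervated muscle had large ratios, and none passed. Chrng, the fetal subunit gene of the acetylcholine receptor (chromosome 1, 87204657 to 87212694), had 0, 0 and 0 counts in WT and 20, 28 and 70 in MKO. Its MKO mean was 12.1 times a floor of 3 counts per library, a ratio that leaves out the spread among the MKO libraries. Mymk, which encodes the myoblast fusion protein myomaker, was at 0.27, 0.74 and 0 CPM in WT and 2.33, 5.73 and 9.48 in MKO (4.08 ± 1.38). Tnnt2, the troponin T gene of heart and embryonic muscle, was at 1.30, 2.08 and 1.85 CPM in WT and 7.18, 8.0 and 12.1 in MKO (2.38 ± 0.73). For each of these the 3 MKO libraries were above the 3 WT libraries, as the rule that named them required, and MKO replicate 3 was the highest. Without it the Chrng mean was 7.82 times the floor, and the values for Mymk and Tnnt2 were 3.53 and 2.11. Without WT replicate 3 the value for Mymk was 5.34. After running, Chrng had 0, 0 and 4 counts in WT and 0, 0 and 61 in MKO.

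Myog, a transcription factor gene of differentiating muscle cells, was at 6.24, 8.20 and 3.22 CPM in WT and 9.37, 10.1 and 14.8 in MKO (0.96 ± 0.31). Runx1, a transcription factor gene known for its rise after denervation, was at 1.78, 1.61 and 1.03 CPM in WT and 3.32, 2.40 and 5.07 in MKO (1.29 ± 0.46). Agrn, which encodes the nerve signal agrin, had 0.32 ± 0.12. Musk, the kinase gene at the postsynaptic membrane, lay the other way at 8.77, 7.40 and 6.50 CPM in WT and 4.25, 4.87 and 5.49 in MKO (-0.63 ± 0.19). The adult receptor subunit gene Chrne had -0.15, and the embryonic and perinatal myosin genes Myh3 and Myh8 had 0.10 and -0.22. The neuromuscular junction and denervation list thus had 13 positive and 8 negative members of 21, with a median of 0.06. In 5 members, Chrng among them, the groups did not overlap upward, and in 1 downward (5.39% and 4.98% over all genes). The list of myogenic regulators and satellite cell genes had 14 positive and 9 negative members of 23 (median 0.10, and -0.01 without MKO replicate 3). The stem cell gene Pax7 had 0.25.

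Of the genes with the smallest p among those higher in MKO, some are described here for their role. Tubb6, a beta-tubulin gene, was at 14.2, 16.3 and 11.6 CPM in WT and 22.1, 24.7 and 42.9 in MKO (1.10 ± 0.27, and 0.74 without MKO replicate 3). Dclk1, a microtubule-associated kinase gene, was at 1.17, 1.61 and 1.10 CPM in WT and 3.19, 5.33 and 7.73 in MKO (2.07 ± 0.52, and 1.71 without MKO replicate 3). Its exons overlap those of genes on the opposite strand by 87 bases. The exchange factor gene Tiam1, which activates the GTPase RAC1, had 0.77 ± 0.20, and the scaffold gene Mpp3 had 0.80 ± 0.18.

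**Figure D4:**
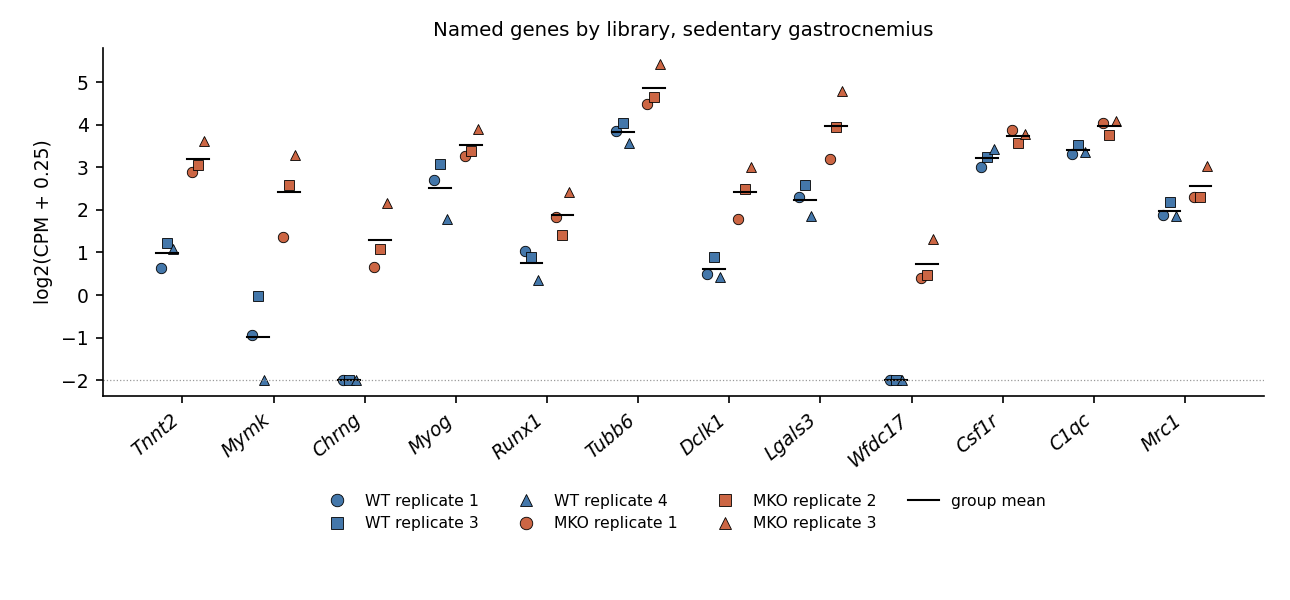
Level of 12 of the named genes in each sedentary library, as log2(CPM + 0.25), with bars at group means and a dotted line at no counts. For each gene the 3 MKO libraries lie above the 3 WT libraries, and 1 gene, Csf1r, is highest in MKO replicate 1. For Tnnt2, Mymk, Chrng, Tubb6, Dclk1, Lgals3 and Wfdc17 the rule that named them required this separation. The other genes were picked by hand with earlier results of these data known, and Musk, which lay the other way, is not shown. The separation is therefore no result about any of the 12 genes.

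All 16 tested macrophage markers were positive, with a median of 0.62, against 50.2% positive over all genes. For 9 of them the groups did not overlap, and 8 had an unadjusted p under 0.05 with MKO higher. Over all genes these shares were 5.39% and 2.13%. The median stayed between 0.50 and 0.83 when any 1 library was left out. Csf1r, the receptor gene for the macrophage growth factor, was at 7.75, 9.15 and 10.6 CPM in WT and 14.4, 11.7 and 13.5 in MKO (0.53 ± 0.16). C1qc, a subunit gene of complement C1q, was at 9.67, 11.2 and 10.1 CPM in WT and 16.1, 13.3 and 16.7 in MKO (0.58 ± 0.18). Mrc1 and Folr2, markers of resident macrophages, had 0.65 ± 0.24 and 0.86 ± 0.26. Summed over the 19 markers, the level was 90.1 to 125 CPM in WT and 141 to 190 CPM in MKO. The marker Aif1 was at 0 in each library. No marker passed over all genes.

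Lgals3, which encodes galectin-3 and is abundant in activated macrophages, was at 4.66, 5.72 and 3.35 CPM in WT and 8.84, 15.1 and 27.3 in MKO (1.9 ± 0.48, and 1.38 without MKO replicate 3). Wfdc17, a small secreted protein gene of myeloid cells, had 0, 0 and 0 counts in WT and 16, 17 and 37 in MKO. The MKO mean was 7.23 times a floor of 3 counts per library, and 5.38 times without MKO replicate 3. After running, Wfdc17 had 10, 0 and 7 counts in WT and 0, 6 and 28 in MKO, so presence and absence did not follow genotype there. The part of the macrophage markers in these values was not tested. The class II antigen genes H2-Ab1, H2-Aa and H2-Eb1 had 0.46 ± 0.20, 0.47 ± 0.22 and 0.50 ± 0.23, with groups that did not overlap, and 18 of 24 genes of the interferon and antigen list were positive (median 0.24). Neutrophils and T cells were barely seen. The 13 neutrophil markers summed to 0.471 to 1.20 CPM per library and the 13 markers of T and NK cells to 0.205 to 1.0 CPM. Cd3d, Cd3e and Cd3g had no counts in the 6 libraries. The B cell marker Ms4a1 also had none, while the antibody gene Ighm was at 86.9, 51.8 and 57.1 CPM in WT and 59.9, 161 and 179 in MKO (1.03 ± 0.42).

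Markers of blood and nerve were also measured. All 8 red blood cell genes were positive with a median of 0.90, and the summed level was 814, 1782 and 514 CPM in WT and 1887, 2371 and 1462 in MKO. The groups overlapped through WT replicate 3, and without it the median was 1.70. The other medians with 1 library left out were 0.52 to 1.05. The globin pairs Hba-a1 and Hba-a2, and Hbb-bs and Hbb-bt, are close copies whose reads may have been shared. All 14 Schwann cell genes were positive with a median of 0.58, which turned to -0.28 without MKO replicate 1. Their summed level was 113, 83.5 and 199 CPM in WT and 436, 108 and 96.4 in MKO, with MKO replicate 1 the highest library. Of 28 extracellular matrix genes 24 were positive (median 0.26, and 0.14 without WT replicate 4), with the fibrillin gene Fbn1 at 0.39 ± 0.18 and the collagen gene Col6a1 at 0.31 ± 0.14. The endothelial and the smooth muscle and pericyte lists had medians of -0.01 and -0.11.

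Metallothioneins, which bind zinc and copper, had large values that rested in part on MKO replicate 3. Mt2 was at 15, 14.5 and 6.43 CPM in WT and 39.9, 19.1 and 187 in MKO (2.77 ± 0.75, and 1.29 without MKO replicate 3). Mt3 was at 1.71, 0.87 and 1.71 CPM in WT and 5.71, 6.67 and 26.5 in MKO (3.18 ± 0.88, and 2.1 without MKO replicate 3). In both genes the 3 MKO libraries were above the WT libraries, as the rule that named them required. Mt1 overlapped between the groups and had 1.61 ± 0.58, and 0.52 without MKO replicate 3. The oxidative stress list, which holds Mt1 and Mt2, had 15 negative members of 22 and a median of -0.04. Of the amino acid genes of the integrated stress response, Asns and Psat1 had 1.73 ± 0.56 and 0.95 ± 0.39 at under 2 CPM, while the list's median was -0.02. The value for Asns was 2.35 without WT replicate 1 and 1.15 without WT replicate 3, which held no counts of it.

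Among the genes lower in MKO, Zcchc4, which encodes an RNA methyltransferase of the ribosome, had the smallest p after the target. It was at 4.8, 5.45 and 4.65 CPM in WT and 2.46, 2.87 and 2.90 in MKO (-0.85 ± 0.14, edgeR adjusted p = 0.354). The spread within each group was small, and the value was -0.90 to -0.78 with any 1 library left out. After running, the 2 genotypes had a Zcchc4 fold change of 0.15. Nos1, the neuronal nitric oxide synthase gene of the muscle membrane, was at 60.5, 61.6 and 73.5 CPM in WT and 47.7, 46.2 and 44.2 in MKO (-0.50 ± 0.12). Dmd, which encodes dystrophin, the anchor of that synthase, was at 33.7, 39.4 and 36.6 CPM in WT and 25.6, 30.6 and 23.6 in MKO (-0.46 ± 0.23). Thpo, the thrombopoietin gene, had -0.50 ± 0.11. Htra4 and Cd28 had -1.68 ± 0.40 and -1.43 ± 0.37 at rest, and -2.59 and -2.18 after running, and passed in neither state. Other genes with a small p among those lower in MKO are not described.

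Mss51, a muscle mitochondrial gene, was at 75.8, 41.0 and 247 CPM in WT and 31.4, 40.9 and 15.6 in MKO. Its fold change of -2.05 ± 0.61 was -0.99 without WT replicate 4, and WT replicate 3 and MKO replicate 2 lay side by side. Cpt1c, the brain form of carnitine palmitoyltransferase (chromosome 7, 44959372 to 44974851, minus strand), had 16, 13 and 16 counts in WT and 0, 0 and 0 in MKO. The WT mean was 5.28 times a floor of 3 counts per library. Cpt1c did not pass by edgeR (adjusted p = 0.404), and limma-voom passed it (adjusted p = 1.18e-05). The 6 exercised libraries of both genotypes held 0 counts of it. Its exons overlap a gene on the opposite strand by 366 bases, and no source used here states if reads were counted by strand.

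Some low p-values came from genes that share exonic sequence. Pus3, a pseudouridine synthase gene, had 86, 90 and 92 counts in WT and 0, 0 and 15 in MKO, while Hyls1, a centriole gene whose exons overlap others on the opposite strand by 2618 bases, had 8, 7 and 8 in WT and 88, 10 and 114 in MKO. Summed, the pair had 94, 97 and 100 counts in WT and 88, 10 and 129 in MKO, and the groups overlapped. Pla2g4b, a phospholipase gene, had 5, 8 and 8 counts in WT and 34, 18 and 38 in MKO (1.99 ± 0.38, edgeR adjusted p = 0.725). Together with Gm28042, which overlaps it on the same strand, the counts were 56, 45 and 56 in WT and 34, 61 and 38 in MKO. The split of reads between such genes is uncertain. The predicted X-linked pseudogene Gm6977 had 0, 0 and 0 counts in resting WT and 1259, 1221 and 1464 in resting MKO. In exercised WT it had 0, 1154 and 0, and in exercised MKO 1217, 0 and 1315, so presence and absence did not follow genotype there.

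Over all lists, 672 of 752 listed genes were tested and 0 passed by edgeR. Of the 35 lists with at least 3 tested members 18 had a positive and 17 a negative median, and 20 changed sign when 1 of the 6 libraries was left out. The mean log2 CPM of the members did not overlap between the groups for 3 of the 35 lists. These were macrophages (1.71 to 2.18 in WT and 2.44 to 2.81 in MKO), the neuromuscular junction and denervation list (2.95 to 3.29 and 3.44 to 3.58), and the insulin list above. For comparison, the groups did not overlap for 10.4% of all single genes. The neuromuscular list holds Chrng, which had no counts in WT and met the count rule through its MKO libraries alone. The median of the list was only 0.06. The part of Chrng in the gap between the groups was not tested, so no result is drawn from this gap.

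**Figure D5:**
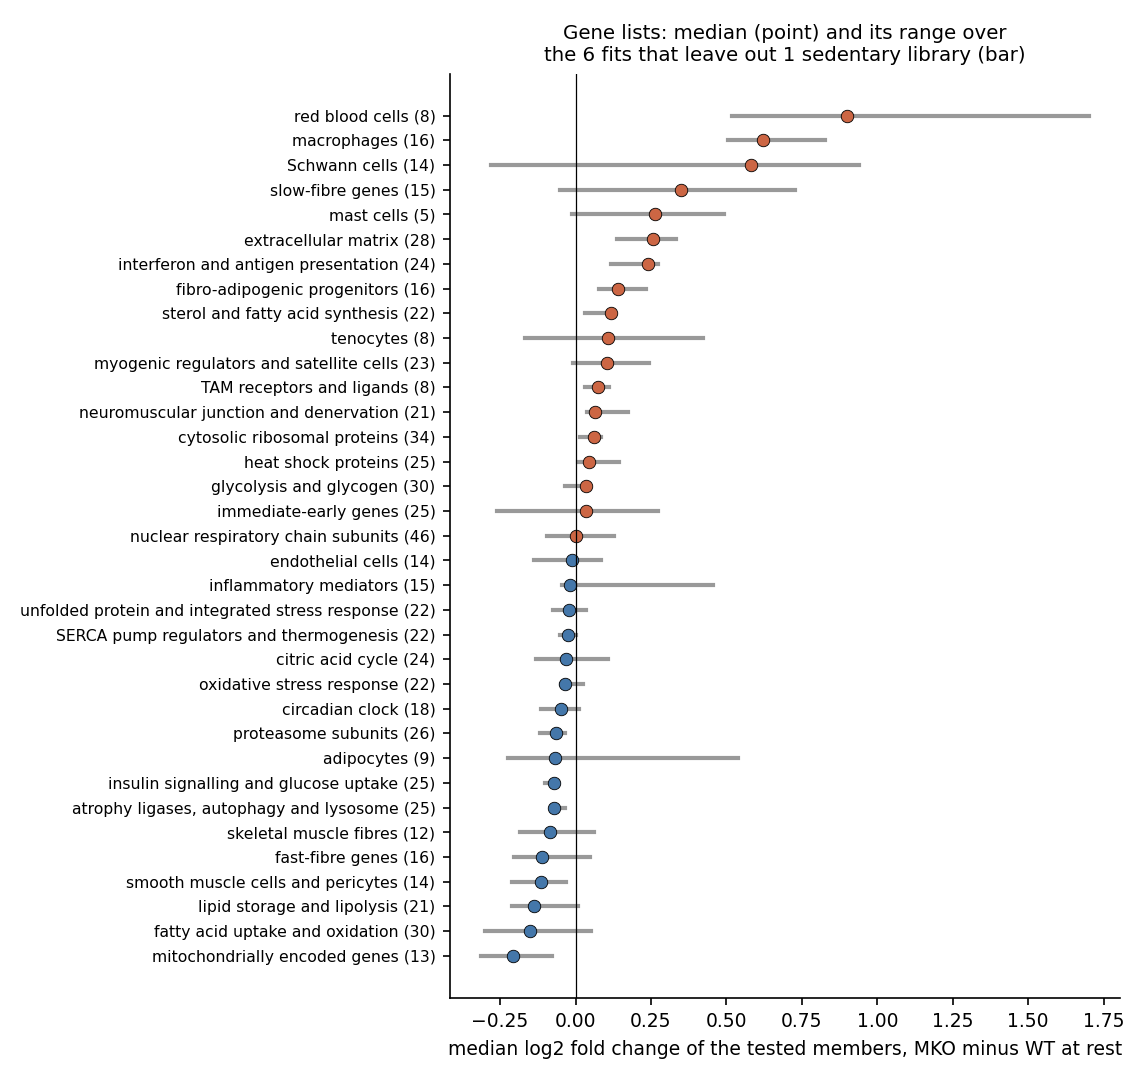
Median log2 fold change, MKO minus WT at rest, of the tested members of 35 gene lists (points, number of members in brackets), with bars for its range over the 6 fits that leave out 1 sedentary library each. The macrophage median (0.62) keeps a range of 0.50 to 0.83, and 20 of the 35 bars cross 0.

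The exercised libraries give a measurement of the same genes in other samples. Of the 302 genes with an unadjusted p under 0.05 that were higher in MKO at rest, 248 were positive after running (82.1%), against 51.1% of all genes, and their median log2 fold change after running was 0.40. Of the 227 that were lower, 184 were negative (81.1%, against 48.9% of all genes), with a median of -0.17. With any 1 exercised library left out, the shares were 78.1% to 84.8% and 76.2% to 80.6%. After running, Tnnt2 was at 2.05, 1.4 and 2.44 CPM in WT and 3.56, 4.07 and 28.3 in MKO, so its fold change of 2.60 was 0.95 without exercised MKO replicate 4. Dclk1 had 1.58, and 0.54 without that library. Tubb6, Lgals3, C1qc, Nos1 and Musk had 0.77, 1.23, 0.89, -0.43 and -1.11. By edgeR 0 of these 7 genes passed after running, while C1qc passed without exercised MKO replicate 2 (adjusted p = 0.00824) and Musk without exercised WT replicate 3 (adjusted p = 0.0406). Others did not keep their values, with Zcchc4 at 0.15, Thpo at 0.27 and Myog at 0.14. This comparison was chosen after the values had been seen, and the exercised libraries shared no sample with the sedentary ones.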

How the data were processed

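RNA was sequenced from gastrocnemius of 12 mice and the files give raw counts per Ensembl gene, as deposited by the authors. Extraction used a GeneMark total RNA kit, and sequencing a DNBSEQ instrument, per the labels' protocols, which speak of 18 libraries; 12 are analysed here. The submitters' processing notes name DESeq2 1.40.2, StringTie 2.1.4, HISAT2 2.2.1, SAMtools 1.9, FastQC 0.12.1 and R 4.3, with mm10 and GRCm38.p6 as builds. The counting tool, its strand setting, its handling of reads with several matches and its annotation are not named in these sources. Symbols and positions came from GENCODE M21, in which 42548 identifiers matched, and the 884 others held 0.0875% of the counts. A column whose name misspells the word for replicate was read as exercised MKO replicate 4.

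Counts were fitted with edgeR 4.0.16 in R 4.3.3 (TMM scaling, quasi-likelihood test) in 1 model of all 12 libraries, whose 4 group means left 8 degrees of freedom for the residual. The threshold was 0.05 on p-values adjusted by Benjamini-Hochberg over 14165 genes. Each SE was obtained by dividing the fold change by the root of its F value, and the biological coefficient of variation was 15.1%. Intervals are at 95%, and floors for groups without counts are 3 counts per library. No library repeated another. P-values measure only the spread between samples, which may be technical, since no litter, batch or day is labelled. Gene lists were described by counts and medians without a test. Genes to name were taken from the heat, TAM and earlier-called sets, from each list (at most 4 with the smallest p), and from neighbours within 500 kb of the target. In each direction the 12 smallest p and 8 largest folds were added. These came from genes with a group mean of at least 1 CPM and groups that did not overlap (predicted genes left out). Only some of the genes so taken are described, picked by hand for their role. Further list members are also named for their role. Members and lists were chosen with earlier results of these data known. Simulated counts were used to check the fit. Alternatives were DESeq2 1.42.0, limma-voom (limma 3.58.1), other scalings and filters, the 6 sedentary libraries alone, a block for the replicate number, and leaving out single libraries. The sign after running, its values with single exercised libraries left out, folds against the floor with a library left out, and the sums of overlapping genes were added after seeing the data. Some items are not reported here. Figures were drawn with matplotlib 3.10.9.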

Additional observations from a re-analysis of the deposited data

How the results depend on the processing

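B230219D22Rik passed under 15 of 15 alternatives, with log2 fold changes of -2.39 to -2.03. The count of genes that passed at rest was 2 with DESeq2, 2 with limma-voom, 2 with the 6 sedentary libraries alone, and 1 to 3 with each library left out. The added genes were Gm6977 (DESeq2 and 6 libraries), Cpt1c (limma-voom), AU022252 and Cenpt (without WT replicate 1), Evi2a (without MKO replicate 1) and Gm28042 (without MKO replicate 2). The count for the difference between running and rest was 3 with DESeq2, 1 with limma-voom, 1 with total counts as the library size, and 0 to 2 with each library left out. Labels share the numbers 1 and 3 between the groups. Deviations from the group means had r = 0.030 and 0.064 for same-numbered libraries, and -0.079 to 0.044 for the other pairs. So few pairs cannot decide whether the numbers pair the libraries. With the replicate block 1 gene passed at rest, B230219D22Rik (edgeR adjusted p = 0.0481), and 0 for the difference. Of 1151 values for 77 genes 1141 kept direction and side of the threshold, and 9 changed sign. The 77 genes do not cover every gene described. Trim63, which is not among them, turned to 0.05 without WT replicate 1. Atp2a2 turned to -0.11 with limma-voom and -0.25 with the replicate block. With single libraries left out, Mertk ranged from -0.034 to 0.24, Ddx46 from -0.10 to 0.076 and Txndc15 from -0.046 to 0.083. Mertk was negative without MKO replicate 1 or 3 (-0.00024), Ddx46 positive without WT replicate 4 or MKO replicate 2, and Txndc15 negative without WT replicate 3 or MKO replicate 3. Ddx46 turned to 0.063 with total counts. The cause of these changes was not tested. With total counts the median over all genes moved to 0.085. Of 525 list medians 511 moved by less than the spread between libraries. That spread, the SD of list scores within groups, was as wide as 1.28 for slow-fibre genes and 0.81 for Schwann cells. A median could therefore change sign and still count as not moved. With 3 libraries a group, intervals for genes under 1 CPM often span more than 2-fold.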

Other observations

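Further genes of fetal or stretched muscle were looked at after their values had been seen, and none passed by edgeR. Actc1, the cardiac actin gene that is also used in fetal skeletal muscle, was at 54.4, 233 and 33.7 CPM in WT and 482, 123 and 486 in MKO at rest, with groups that overlapped. Ankrd1, a stretch-responsive gene, was at 2.74, 5.38 and 4.86 CPM in WT and 9.30, 8.47 and 14.1 in MKO (log2 fold change 1.29 ± 0.40). Myl4, the embryonic light chain gene, was at 2.88, 3.09 and 8.15 CPM in WT and 8.77, 9.47 and 17.7 in MKO. The growth factor gene Igf2 was at 13.6, 18.8 and 15.5 CPM in WT and 26.4, 21.2 and 40.1 in MKO, and the neighbouring noncoding gene H19 at 466, 399 and 251 CPM in WT and 531, 644 and 492 in MKO. In Ankrd1, Myl4, Igf2 and H19 the 3 MKO libraries were above the 3 WT libraries, as in 5.39% of all genes. These genes were picked with their values known, so the separation is no result about them. The log2 fold changes were 1.77 ± 0.74 for Actc1, 1.35 ± 0.70 for Myl4, 0.87 ± 0.52 for Igf2 and 0.58 ± 0.38 for H19. Ankrd2 and Csrp3, stretch-responsive genes of slow fibres, were low in MKO replicate 3, at 21.7 and 5.98 CPM against 114 to 196 and 38.3 to 77.5 CPM in the other 5 libraries.

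After running, the values of Chrng were 0, 0 and 4 counts in WT and 0, 0 and 61 in MKO, and those of Mymk were 0, 0 and 0 CPM in WT and 0.69, 0.44 and 12.4 in MKO. In both, MKO replicate 4 held nearly all of the counts of the exercised MKO group. The circadian genes Nr1d1 and Arntl had resting values of -0.41 ± 0.18 and -0.69 ± 0.31, and 12 of 18 clock genes were negative with a median of -0.05.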
